A study of Danio rerio with 12 samples.

Results

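Insulin-like growth factor binding proteins (IGFBPs), encoded by the igfbp genes, were followed in the injured zebrafish heart with and without dioxin. The genes were taken as all probe sets of the array whose annotated symbol begins with igfbp, which gave 7 of 15502 probe sets and 5 genes of the 8793 that had a probe set with 1 symbol. These are igfbp1a with 2 probe sets, igfbp1b, igfbp2a, igfbp3 with 2 probe sets, and igfbp5b. A RefSeq gene table lists 10 igfbp genes in the zebrafish, and igfbp2b, igfbp5a, igfbp6a, igfbp6b and igfbp7 are not analysed here. The main subject is igfbp1a, which was chosen by its own measured rise 6 hours after amputation in control and dioxin-treated fish. Its levels at 0 and 6 hours are therefore a description and carry no test.

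IGFBPs are secreted proteins that hold insulin-like growth factors (IGFs) in the blood and in the spaces between cells, and decide how much of the ligand can reach its receptor. IGFBP1 in mammals is made mostly by the liver, and its transcript rises in fasting, low oxygen and other stress, when growth is held back. In zebrafish embryos low oxygen raises the transcript of igfbp1a, and the protein slows growth by binding IGFs. A genome duplication in the fish lineage left pairs of igfbp genes, of which igfbp1a and igfbp1b are one.

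Expression was measured on 12 Affymetrix zebrafish arrays, 2 in each of 6 groups of adult fish of the AB strain. The fish received TCDD (2,3,7,8-tetrachlorodibenzo-p-dioxin, an activator of the aryl hydrocarbon receptor) at 70 ng/g into the abdominal cavity, or vehicle, a day before the tip of the ventricle was cut off. The groups are control and TCDD fish without amputation (0 hpa, hours post amputation), 6 hours after it (6 hpa) and 7 days after it (7 dpa, days post amputation). Each array holds RNA pooled from 10 ventricle pieces, the bottom piece that includes the cut edge in amputated hearts. The protocol names a vehicle injection for controls, whereas the treatment label of the control arrays reads none. No group received TCDD after the injury. Because the 2 arrays of a group are separate pools, p-values measure the spread between such pools and not between single fish.

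The tissue label was checked against its markers. The summed intensity of 9 measured cardiomyocyte markers out of 18 listed lay between 20500 and 38600 on all 12 arrays. The treatment label was checked likewise: the level of cyp1a, a textbook target gene of this receptor, was 8.33 ± 0.47 log2 units higher in TCDD than in control fish at 0 hpa (limma with Benjamini-Hochberg adjustment, adjusted p = 0.000514). Array medians lay between 3.26 and 3.53 log2 units. The first TCDD 6 hpa array stood apart from the other 11. Its correlation with its partner was 0.901 against 0.958 to 0.979 within the other groups. Its difference between the 3′ and 5′ probe sets of the actin control, a measure of RNA degradation or shortened cRNA, was 3.35 log2 units against −0.0848 to 2.07. Every 6 hpa value of TCDD fish below rests in part on this array. Values of igfbp1a and cyp1a are also given without it, and list genes whose call was lost without it are named.

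The log2 level of the brighter igfbp1a probe set, called probe set 1 here, was 5.70 and 6.32 in the 2 control 0 hpa pools, 9.23 and 8.50 in control 6 hpa, and 5.21 and 5.84 in control 7 dpa. In TCDD fish the log2 levels were 4.91 and 4.94 at 0 hpa, 9.91 and 10.03 at 6 hpa, and 4.70 and 6.17 at 7 dpa. All 4 arrays at 6 hpa were above all 8 others, and both TCDD 6 hpa arrays were above both control 6 hpa arrays, by at least 0.68. Both TCDD 0 hpa arrays were below both control 0 hpa arrays, by at least 0.77. At 6 hpa the transcript stood at the 97.2 to 99 percentile of its array, and on the other 8 arrays at the 73.2 to 88.7 percentile. In bulk tissue, fewer cells of a type and less RNA per cell cannot be told apart, and that holds for every level given here.

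The second igfbp1a probe set gave log2 levels of 6.05 and 6.28 in control 0 hpa, 9.16 and 8.37 in control 6 hpa, and 5.62 in both control 7 dpa pools. In TCDD fish it gave 4.96 and 4.78 at 0 hpa, 8.94 and 9.91 at 6 hpa, and 5.37 and 6.35 at 7 dpa. It again placed the 4 arrays at 6 hpa on top. The TCDD 0 hpa pools were the lowest of its 12 arrays, whereas on probe set 1 the lowest was a TCDD 7 dpa pool. It also differed from probe set 1 in that the TCDD and control pools at 6 hpa overlapped. The log2 values of both probe sets correlated over the 12 arrays with Pearson's r = 0.985 and Spearman's rho = 0.951, a description over arrays that both probe sets share. The difference between them, probe set 1 minus probe set 2, lay between −0.675 and 0.219 on 11 arrays and was 0.974 on the TCDD 6 hpa array that stood apart.

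**Figure D1:**
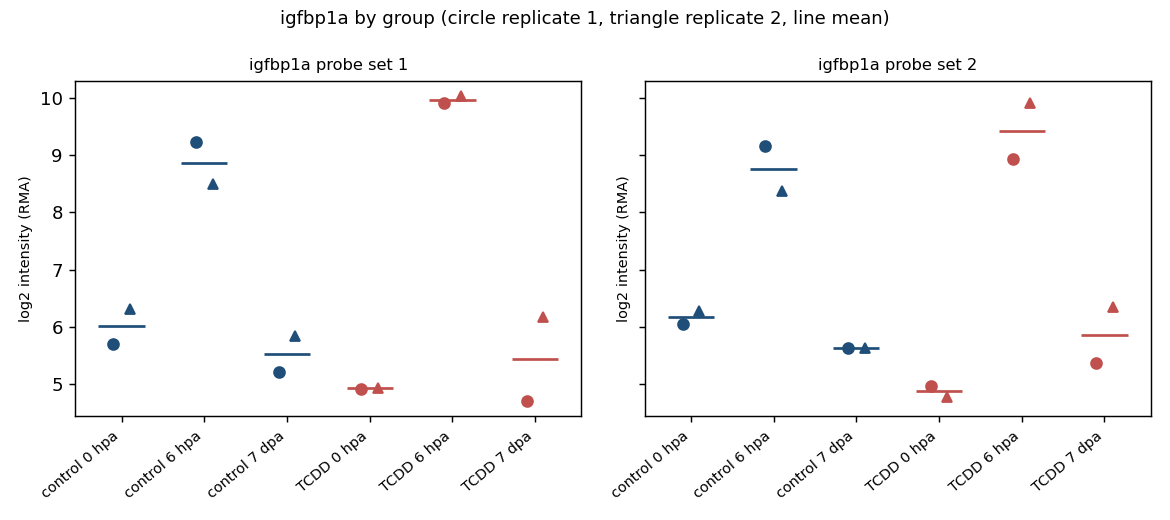
Log2 intensity of both igfbp1a probe sets (vertical axis) in the 6 groups (horizontal axis). Circles are replicate 1, triangles replicate 2 and lines the group means. The 4 arrays at 6 hpa lie between 8.37 and 10.03, and the other 8 between 4.70 and 6.35.

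In control fish igfbp1a rose from a mean of 6.01 ± 0.437 (SD, n = 2) at 0 hpa to 8.87 ± 0.514 (SD, n = 2) at 6 hpa on probe set 1, which is 2.86 ± 0.46 log2 units (limma standard error) or 7.25-fold. In TCDD fish it rose from 4.92 ± 0.0183 to 9.97 ± 0.086 (SD, n = 2 each), which is 5.05 ± 0.46 log2 units or 33.2-fold. Probe set 2 gave 2.60 ± 0.41 log2 units, or 6.05-fold, in control fish and 4.56 ± 0.41, or 23.6-fold, in TCDD fish. By size among the 15502 probe sets, the rise of probe set 1 was number 19 in control fish and number 2 in TCDD fish, and that of probe set 2 was number 31 and number 3. With either array of the 0 hpa and 6 hpa groups taken alone, the rise of probe set 1 was 2.19 to 3.53 in control and 4.98 to 5.13 in TCDD fish. For probe set 2 these single-array rises were 2.08 to 3.11 and 3.98 to 5.13. The ranges of control and TCDD fish did not overlap for either probe set. The share of all probe sets with such separate ranges is not given. The gene was also chosen by these arrays, so the separation is a description.

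The rise in TCDD fish was thus larger than that in control fish by 2.19 ± 0.65 log2 units on probe set 1, a ratio of folds of 4.58. On probe set 2 it was larger by 1.96 ± 0.57, a ratio of folds of 3.90. This difference had a part from each time point. On probe set 1 the TCDD mean was 1.11 above the control mean at 6 hpa and 1.09 below it at 0 hpa, so that 50.5% of the difference came from the injured hearts and 49.5% from the uninjured ones. On probe set 2 the TCDD mean was 0.67 above at 6 hpa and 1.30 below at 0 hpa, which is 33.9% and 66.1% of the difference. These shares carry no error and moved when single arrays were left out. On probe set 2 the gap at 6 hpa was 1.15 of a difference of 2.45 without TCDD 6 hpa replicate 1. Without TCDD 6 hpa replicate 2 it was 0.18 of 1.48. The gap at 0 hpa is a 2.12-fold lower level in uninjured TCDD hearts on probe set 1 and a 2.46-fold lower level on probe set 2.

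When single arrays were left out, the gap at 0 hpa ran from −1.40 to −0.78 on probe set 1 and from −1.41 to −1.18 on probe set 2. The gap at 6 hpa on probe set 1 was 0.74 without control 6 hpa replicate 2 and 1.47 without control 6 hpa replicate 1. On probe set 2 it was 0.18 without TCDD 6 hpa replicate 2 and 1.15 without TCDD 6 hpa replicate 1, the array that stood apart. The difference of the rises stayed between 1.48 and 2.56 over both probe sets and all arrays left out in turn.

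In the whole table, 0.477% of probe sets were called in control 6 hpa against control 0 hpa and 1.88% in TCDD 6 hpa against TCDD 0 hpa, where called means an adjusted p under 0.05 over all 15502 probe sets. The TCDD change of the 6 hpa response, which is the TCDD rise minus the control rise, was called for 0.00645% of probe sets, or 1 probe set. TCDD against control at 6 hpa was called for 0.0129% and at 0 hpa for 0.0258%. The rule that chose igfbp1a used these 5 comparisons, so its place in them is not read as a result.

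The deposited tables of the authors' own comparisons hold group means that can be set beside these, although how their arrays were normalised is not given in the sources used here. The tables are assigned to groups by their names. In the 2 named for 6 hpa the class header carries a 7, while the data set named in the same header is that of 6 hpa. In the authors' deposited table the linear mean of igfbp1a probe set 1 was 60.9 in control 0 hpa, 410 in control 6 hpa and 796 in TCDD 6 hpa. For probe set 2 the authors' deposited table gives linear means of 59.8, 356 and 584 in the same order. From these means of the authors' deposited tables, the ratio of TCDD to control at 6 hpa is 1.94 on probe set 1 and 1.64 on probe set 2, and the values analysed here give 2.15 and 1.59. At 7 dpa the authors' deposited table lists probe set 1 at 37.9 in control and 38.2 in TCDD fish, and probe set 2 at 45.2 and 55.8.

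By mean log2 level of probe set 1 the groups stood in the order TCDD 6 hpa, control 6 hpa, control 0 hpa, control 7 dpa, TCDD 7 dpa and TCDD 0 hpa. The arrays of neighbouring groups were apart for the first 3 and overlapped from control 0 hpa to control 7 dpa, from there to TCDD 7 dpa, and from there to TCDD 0 hpa. On probe set 2 the order was the same except that TCDD 7 dpa, at 5.86 ± 0.69, came before control 7 dpa, at 5.62 ± 0.00258 (SD, n = 2 each). There the arrays of neighbouring groups were apart only between control 6 hpa and control 0 hpa and between control 7 dpa and TCDD 0 hpa. The 7 dpa levels took no part in the choice of the gene. Set against 0 hpa, however, they are compared with arrays that the choice had used. The p-values of 7 dpa against 0 hpa given below for igfbp1a are therefore no independent test. The comparison of TCDD 7 dpa with control 7 dpa takes its difference from arrays outside the choice.

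At 7 dpa igfbp1a lay between 4.70 and 6.35 on all 4 arrays and both probe sets, below every 6 hpa array. In control fish probe set 1 was −0.49 ± 0.46 log2 units from control 0 hpa (limma, adjusted p = 0.888) and probe set 2 −0.54 ± 0.41 (adjusted p = 0.772). The called share of all probe sets in this comparison was 2%. In TCDD fish probe set 1 was 0.51 ± 0.46 from TCDD 0 hpa (limma, adjusted p = 0.834), with a value of −0.22 without TCDD 7 dpa replicate 2 and 1.25 without TCDD 7 dpa replicate 1. Probe set 2 was 0.99 ± 0.41 from TCDD 0 hpa (limma, unadjusted p = 0.0372, adjusted p = 0.337), with both 7 dpa arrays above both 0 hpa arrays, and 2.37% of all probe sets were called. None of these tests passed the threshold.

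The TCDD change of the 7 dpa response was 1.00 ± 0.65 log2 units on probe set 1 (limma, adjusted p = 1) and 1.54 ± 0.57 on probe set 2 (unadjusted p = 0.0256, adjusted p = 1), where 0.00645% of all probe sets were called. On probe set 2 most of this difference is the gap at 0 hpa, −1.30. On probe set 1 the gap at 0 hpa, −1.09, was larger in size than the whole difference. The choice of the gene had used the gap at 0 hpa, so the difference is given as a description. TCDD 7 dpa against control 7 dpa gave −0.09 ± 0.46 and 0.24 ± 0.41 (limma, adjusted p = 1 for both), where 0.116% of all probe sets were called. The pools of TCDD and control fish overlapped at 7 dpa on both probe sets.

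**Figure D2:**
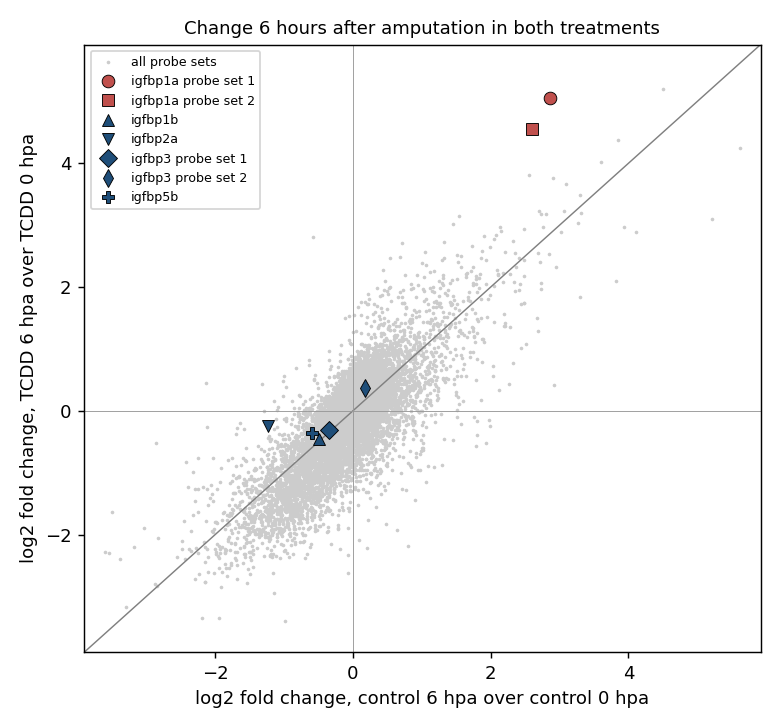
Log2 fold change from 0 to 6 hpa in control fish (horizontal axis) and in TCDD fish (vertical axis) for all 15502 probe sets (grey dots) and the 7 igfbp probe sets (large symbols). The diagonal marks equal change in both. The igfbp1a probe sets lie at 2.86 and 5.05, and at 2.60 and 4.56, above the diagonal, and the other 5 igfbp probe sets lie between −1.23 and 0.37 on both axes.

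The other 4 igfbp genes showed no rise of the size seen for igfbp1a. None of their 5 probe sets was called in any of the 9 comparisons. Beside the small shares of all probe sets given above, that count says little about these genes. At an unadjusted p under 0.05 there was 1 in control 6 hpa against 0 hpa and 1 in TCDD 7 dpa against 0 hpa, and 0 in the other 7 comparisons. Of all 15502 probe sets, 1587 and 1948 had such a p in the first and second of these, and 176 to 2659 in the other 7. Their median log2 change at 6 hpa was −0.49 in control and −0.31 in TCDD fish, beside 0.02 and 0.06 over all probe sets. Their levels lay near or moderately above the array medians, from −0.67 to 2.25 log2 units relative to them. Without detection calls in the files, it is not known which of these dim levels exceed the background, and the array may understate a change among them. For single genes below it is stated where the pools of 2 groups did not overlap. With 2 arrays against 2, such a separation reaches no lower than p = 0.333 in an exact permutation test. The share of all probe sets without overlap is not given, so these separations are descriptions.

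The paralogue igfbp1b is the other gene of the igfbp1 pair and codes for the same class of IGF-blocking protein. Its log2 level was 4.74 and 4.61 in control 0 hpa, 3.95 and 4.41 in control 6 hpa, and 3.91 and 4.66 in control 7 dpa. In TCDD fish it was 4.85 and 4.89 at 0 hpa, 4.69 and 4.12 at 6 hpa, and 3.36 and 3.93 at 7 dpa. All 6 hpa pools were below their own 0 hpa pools, the opposite side from igfbp1a, by −0.49 ± 0.31 in control (limma, adjusted p = 0.748) and −0.46 ± 0.31 in TCDD fish (adjusted p = 0.491). At 7 dpa the TCDD pools were −1.22 ± 0.31 from TCDD 0 hpa (limma, unadjusted p = 0.00366, adjusted p = 0.0946), with both arrays below, and the control pools −0.39 ± 0.31 (adjusted p = 0.811) with overlap.

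The igfbp2a gene codes for a binding protein that circulates in fish and mammals. Its log2 level was 3.91 and 4.24 in control 0 hpa, 2.96 and 2.74 in control 6 hpa, and 4.49 and 2.98 in control 7 dpa. In TCDD fish it was 3.13 and 3.32 at 0 hpa, 3.18 and 2.79 at 6 hpa, and 2.92 and 3.26 at 7 dpa. Control 0 hpa and a single control 7 dpa pool were the high arrays. The 6 hpa difference was −1.23 ± 0.42 in control fish (limma, unadjusted p = 0.0162, adjusted p = 0.310) and −0.24 ± 0.42 in TCDD fish (adjusted p = 0.807), and the test of the difference between both gave 0.99 ± 0.59 (adjusted p = 1). The TCDD 0 hpa pools were below the control 0 hpa pools without overlap, as for igfbp1a, by −0.85 ± 0.42 (limma, unadjusted p = 0.0715, adjusted p = 1).

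IGFBP3 is the main carrier of IGFs in mammalian blood, where it forms a complex with the acid-labile subunit. In the RefSeq table (assembly GRCz12tu) igfbp3 and igfbp1a are neighbouring protein-coding genes. The log2 levels of its brighter probe set stayed between 3.84 and 4.75 on all 12 arrays, and those of the other between 3.09 and 4.15. At 6 hpa the brighter one differed from 0 hpa by −0.35 ± 0.24 in control (limma, adjusted p = 0.790) and −0.31 ± 0.24 in TCDD fish (adjusted p = 0.545). The dimmer one differed by 0.18 ± 0.22 (limma, adjusted p = 0.977) and 0.37 ± 0.22 (adjusted p = 0.416). Its 6 hpa pools were above its 0 hpa pools without overlap, by at least 0.0312 in control and 0.164 in TCDD fish. The 6 hpa pools of the brighter one overlapped those at 0 hpa in control fish and were below them in TCDD fish, by at least 0.176. The 2 probe sets did not move together, with r = −0.296 over the 12 arrays, and neither carried a rise of the size seen for the neighbouring gene.

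IGFBP5 binds to extracellular matrix and acts in muscle and bone of mammals. The log2 level of igfbp5b was 5.11 and 4.56 in control 0 hpa, 4.20 and 4.29 in control 6 hpa, and 5.53 and 5.47 in control 7 dpa. In TCDD fish it was 3.97 and 4.97, then 4.57 and 3.67, then 5.17 and 4.79 at the same times. The control pools at 7 dpa were the highest of all and lay above control 0 hpa without overlap, by 0.67 ± 0.38 (limma, adjusted p = 0.597). At 6 hpa the control pools were below those at 0 hpa, by −0.59 ± 0.38 (limma, adjusted p = 0.755). The TCDD pools overlapped in both comparisons.

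**Figure D3:**
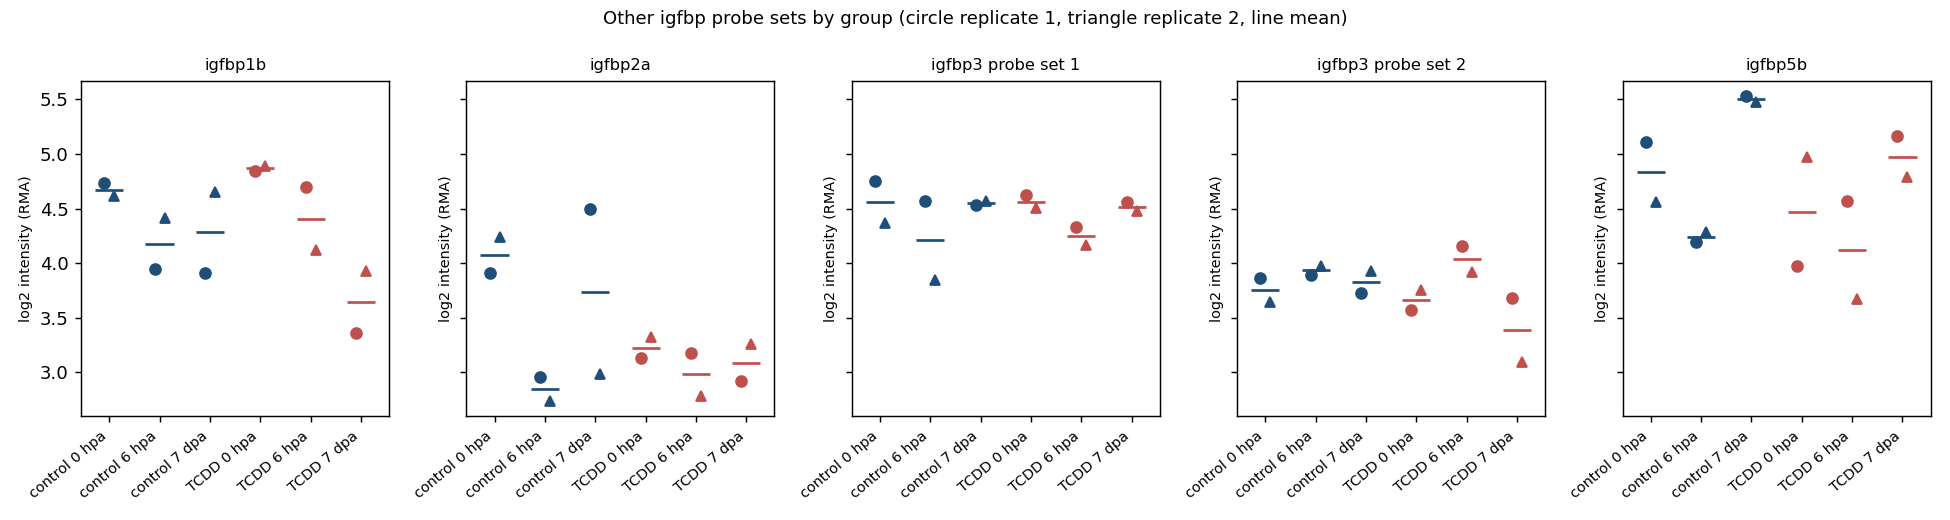
Log2 intensity (vertical axis) of the 5 other igfbp probe sets in the 6 groups (horizontal axis), with circles for replicate 1, triangles for replicate 2 and lines for means. All values lie between 2.74 and 5.53, and none of the panels shows a peak at 6 hpa of the size seen for igfbp1a.

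IGF signalling runs from the ligands IGF1 and IGF2 through the type 1 IGF receptor and the insulin receptor to adaptor proteins, the PI3 kinase and Akt pathway, mTOR and the FoxO transcription factors. A list of 55 genes of this pathway had 26 on the array. In control 6 hpa against 0 hpa 1 of 26 rose and 0 fell, where 0.477% of all probe sets were called, with a median log2 change of 0.05 beside 0.02 over all probe sets. In TCDD 6 hpa against 0 hpa 1 rose and 0 fell, where 1.88% were called, with a median of −0.09 beside 0.06. At 7 dpa 0 rose and 1 fell in both treatments, where 2% and 2.37% were called, with medians of −0.18 in control and −0.22 in TCDD fish beside −0.03 and −0.02. Against 0 hpa an unadjusted p under 0.05 (limma) was found for 6 of 26 in control 6 hpa and 9 in TCDD 6 hpa. Of all 15502 probe sets 1587 and 2659 had such a p. At 7 dpa it was found for 6 of 26 in control and 5 in TCDD fish, beside 1938 and 1948. In the 5 comparisons between treatments 0 of 26 were called by limma, where 0.00645% to 0.116% of all probe sets were called. An unadjusted p under 0.05 was found there for 0 of 26, beside 176 to 615 of all 15502 probe sets. Beside these small shares, counts of 0 say little about the list.

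Among the ligands, igf1 and igf2a lay between 2.51 and 3.00 on all 12 arrays, below the array medians, and differed from 0 hpa by at most 0.24 at either later time. The ligand igf2b, which in zebrafish is produced by the endocardium and epicardium of the regenerating heart, was the only ligand of the 3 clearly above the medians. Its log2 level was 4.86 and 5.63 in control 0 hpa, 4.997 and 4.60 in control 6 hpa, and 7.16 and 6.78 in control 7 dpa. In TCDD fish it was 6.73 and 6.35 at 0 hpa, 4.01 and 6.36 at 6 hpa, and 7.49 and 7.00 at 7 dpa. The control 7 dpa pools were above the control 0 hpa pools by 1.72 ± 0.63 (limma, unadjusted p = 0.0241, adjusted p = 0.280), and the TCDD 7 dpa pools above theirs by 0.71 ± 0.63 (adjusted p = 0.831). At 0 hpa igf2b was higher on both TCDD arrays than on both control arrays, the reverse of igfbp1a, by 1.29 ± 0.63 (limma, unadjusted p = 0.0723, adjusted p = 1). The ligand igf3 and the scavenger receptor igf2r are not analysed here.

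The receptor transcripts gave no call. The type 1 IGF receptor genes igf1ra and igf1rb differed from 0 hpa by 0.02 and 0.00 in control and by −0.08 and −0.25 in TCDD fish at 6 hpa (limma, adjusted p between 0.585 and 1). At 7 dpa igf1rb was −0.56 ± 0.21 from 0 hpa in control and −0.64 ± 0.21 in TCDD fish (limma, unadjusted p = 0.0283 and 0.0146, adjusted p = 0.306 and 0.207). Its dimmer probe set was −1.09 ± 0.30 and −0.51 ± 0.30 there (limma, unadjusted p = 0.00529 and 0.118, adjusted p = 0.121 and 0.589). At 7 dpa igf1ra was −0.29 and −0.23 from 0 hpa. The brightest insra probe set, for an insulin receptor, was 6.85 and 6.02 in control 0 hpa, 5.45 and 5.21 in control 6 hpa, 6.64 and 6.24 in TCDD 0 hpa, and 5.01 and 5.16 in TCDD 6 hpa on the log2 scale. It was lower at 6 hpa without overlap in both treatments, by −1.10 ± 0.40 (limma, adjusted p = 0.359) and −1.36 ± 0.40 (adjusted p = 0.124). The other 2 insra probe sets, near or below the array medians, differed by −0.21 to −0.02. The 2 probe sets of insrb, the other insulin receptor gene, differed by −0.10 to 0.53 at 6 hpa.

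Downstream of the receptors irs2a and grb10a were called. Irs2 is an adaptor that the insulin and IGF receptors phosphorylate. The log2 level of irs2a was 3.80 and 4.01 in control 0 hpa, 5.40 and 4.94 in control 6 hpa, 3.94 and 3.88 in TCDD 0 hpa, and 5.06 and 5.23 in TCDD 6 hpa. It rose at 6 hpa by 1.27 ± 0.20 in control (limma, adjusted p = 0.0441) and 1.23 ± 0.20 in TCDD fish (adjusted p = 0.0306), with a difference between both rises of −0.04 ± 0.29 (adjusted p = 1). At 7 dpa its levels were between 3.14 and 3.66, below every 0 hpa array. The time course of irs2a thus had the same peak as igfbp1a without the larger rise in TCDD fish. The call in control fish was lost without any single array of the groups other than TCDD 6 hpa, and that in TCDD fish without either array of control 0 hpa or TCDD 0 hpa or without TCDD 6 hpa replicate 1, with adjusted p up to 0.284 and 0.199 and the same sign throughout.

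Grb10 is an adaptor that dampens insulin and IGF receptor signals. The log2 level of grb10a was 9.29 and 8.67 in control 0 hpa, 7.05 and 6.89 in control 7 dpa, 9.36 and 8.61 in TCDD 0 hpa, and 7.42 and 6.57 in TCDD 7 dpa. It fell at 7 dpa by 2.00 ± 0.41 log2 units in control (limma, adjusted p = 0.0467) and by 1.99 ± 0.41 in TCDD fish (adjusted p = 0.0435). At 6 hpa it stood between these, at −1.22 ± 0.41 in control (limma, adjusted p = 0.302) and −1.73 ± 0.41 in TCDD fish (adjusted p = 0.0710). Both 7 dpa calls were lost without any single array of the groups other than TCDD 6 hpa, with adjusted p up to 0.288.

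**Figure D4:**
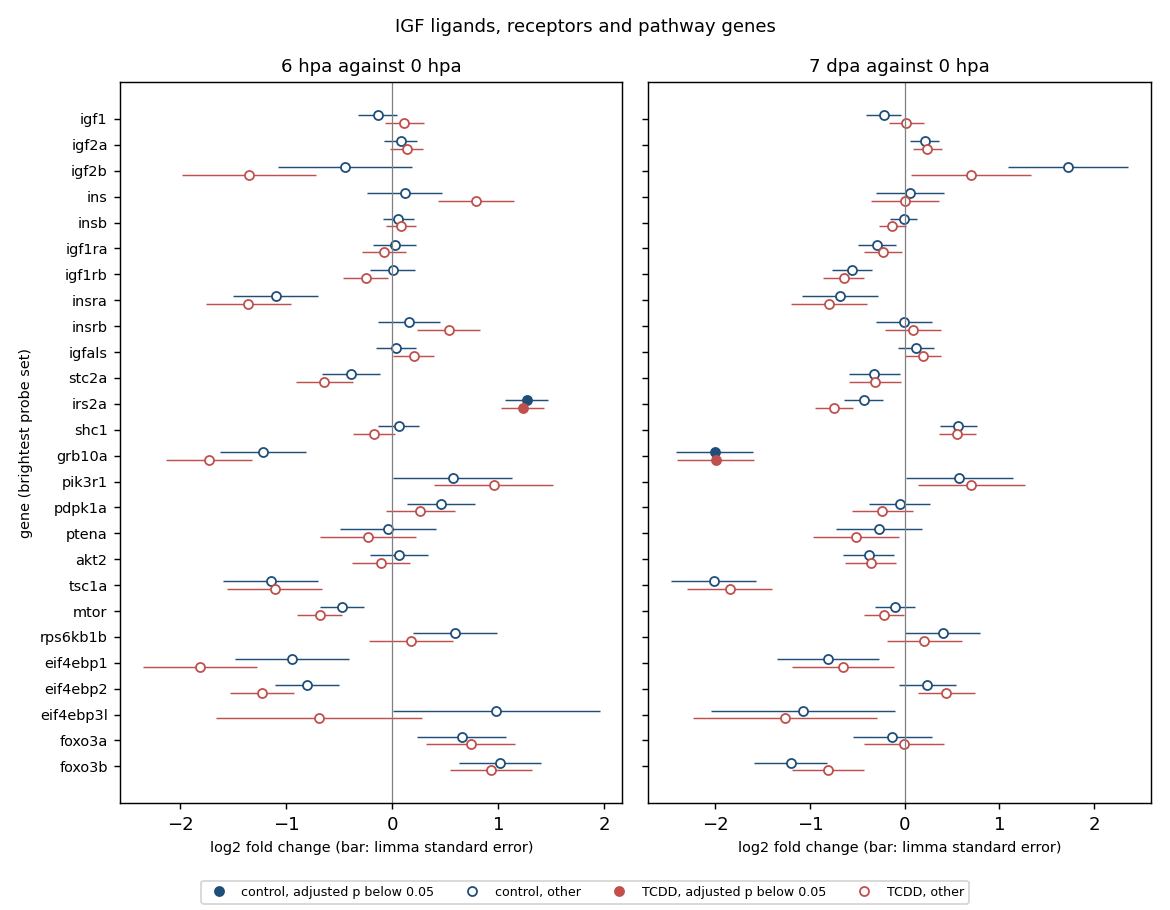
Log2 fold change with its limma standard error (horizontal axis) for the 26 measured IGF pathway genes (vertical axis) at 6 hpa and at 7 dpa against 0 hpa, in control (blue) and TCDD fish (red). Filled points have an adjusted p under 0.05. At 6 hpa only irs2a is filled, at 1.27 and 1.23, and at 7 dpa only grb10a, at −2.00 and −1.99.

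Several secreted or membrane proteins carry an IGFBP-type domain without belonging to the family by name, among them the CCN matrix proteins. Of 18 such genes 6 were measured. None was called at 6 hpa (limma, smallest adjusted p 0.551 in control and 0.420 in TCDD fish, and 0 with an unadjusted p under 0.05), where 0.477% and 1.88% of all probe sets were called. An unadjusted p under 0.05 was found there for 1587 and 2659 of all 15502 probe sets. The medians were −0.025 and −0.315, beside 0.022 and 0.062 over all probe sets. At 7 dpa 1 of 6 was called in each treatment, where 2% and 2.37% were called. The medians there were −0.023 and 0.149, beside −0.026 and −0.016. The called gene was ccn2a, a matrix protein gene of wound and scar tissue also called connective tissue growth factor, which rose in both treatments. Its log2 level was 7.05 and 6.50 in control 0 hpa, 8.72 and 8.96 in control 7 dpa, 5.75 and 6.15 in TCDD 0 hpa, and 8.17 and 8.44 in TCDD 7 dpa. The rise was 2.07 ± 0.39 in control (limma, adjusted p = 0.0340) and 2.36 ± 0.39 in TCDD fish (adjusted p = 0.0171). The control call was lost without any single array of the groups other than TCDD 6 hpa, and the TCDD call without any array of TCDD 0 hpa or TCDD 7 dpa.

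Low oxygen is a known inducer of igfbp1 genes, and genes of that response were counted beside igfbp1a. Of 44 genes listed as hypoxia-inducible or as parts of the sensor, 26 were measured. At 6 hpa 1 rose and 1 fell in each treatment, where 0.477% (control) and 1.88% (TCDD) of all probe sets were called. The medians were 0.00 in control and 0.10 in TCDD fish, beside 0.02 and 0.06 over all probe sets. In each treatment 8 of 26 had an unadjusted p under 0.05 (limma), beside 1587 and 2659 of all 15502 probe sets. The riser was hif1al2, a relative of the alpha subunits of hypoxia-inducible factor (HIF). Its log2 level was 5.23 and 5.79 in control 0 hpa, 8.74 and 7.75 in control 6 hpa, 5.10 and 4.87 in TCDD 0 hpa, and 8.54 and 7.78 in TCDD 6 hpa. It rose by 2.74 ± 0.46 in control (limma, adjusted p = 0.0461) and 3.18 ± 0.46 in TCDD fish (adjusted p = 0.0222).

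The gene that fell was epas1b, which codes for a HIF-2 alpha subunit, from 8.83 and 8.43 in control 0 hpa to 5.50 and 4.98 in control 6 hpa, and from 6.92 and 6.99 to 4.18 and 4.95 in TCDD fish. It fell by 3.39 ± 0.48 log2 units in control (limma, adjusted p = 0.0299) and by 2.39 ± 0.48 in TCDD fish (adjusted p = 0.0461). At 7 dpa it was still lower in control fish, where it fell by 2.76 ± 0.48 (limma, adjusted p = 0.0250), and −1.47 ± 0.48 from 0 hpa in TCDD fish (adjusted p = 0.201). The HIF-1 alpha gene hif1ab differed at 6 hpa by 0.26 ± 0.37 in control and −0.58 ± 0.37 in TCDD fish (limma, adjusted p = 0.997 and 0.463). The vascular growth factor gene vegfaa, a common readout of low oxygen, differed by −0.06 ± 0.46 in both (limma, adjusted p = 1 and 0.963). In TCDD fish at 7 dpa ero1a, an oxidase of the endoplasmic reticulum, rose by 2.22 (limma, adjusted p = 0.0255), and 1 of 26 was called there, beside 2.37% of all probe sets. In control fish ero1a was 1.74 above 0 hpa (limma, adjusted p = 0.0736), and the difference between the treatments was 0.49 (adjusted p = 1). The 6 hpa calls of hif1al2 and epas1b in control fish were each lost without any array of control 0 hpa, control 6 hpa or TCDD 0 hpa, that of hif1al2 also without any array of control 7 dpa or TCDD 7 dpa. In TCDD fish both were lost without either TCDD 0 hpa array or TCDD 6 hpa replicate 1, and that of epas1b also without any control array. The 7 dpa call of epas1b was lost without any array of control 0 hpa or control 7 dpa, and that of ero1a without any array of control 0 hpa or TCDD 0 hpa or without TCDD 7 dpa replicate 2.

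Of 18 genes of the aryl hydrocarbon receptor and its targets 9 were measured, and cyp1a alone was called, in the TCDD against control comparisons at 0 hpa (above), at 6 hpa by 7.35 (limma, adjusted p = 0.00116) and at 7 dpa by 8.87 (adjusted p = 0.000150). That is 1 of 9 each time, where 0.0258%, 0.0129% and 0.116% of all probe sets were called. The list medians of TCDD minus control were 0.999, 0.612 and 0.829 in the same order, beside −0.01, 0.03 and 0.01 over all probe sets. Above 0 were 5, 8 and 6 of 9, and 3 of 9 had an unadjusted p under 0.05 (limma) each time. Of all 15502 probe sets, 225, 421 and 615 had such a p in the same order. The cyp1a calls held in all 17 alternative settings, although the 6 hpa difference was 8.21 without TCDD 6 hpa replicate 1, the array that stood apart, and 6.49 without its partner. Of 30 genes of the integrated and endoplasmic reticulum stress responses, which also act on IGFBP1 in mammalian cells, 21 were measured. None was called at 6 hpa in either treatment, where 0.477% of all probe sets were called in control and 1.88% in TCDD fish. The smallest adjusted p (limma) was 0.233 in control and 0.0967 in TCDD fish. Of the 21, 5 and 4 had an unadjusted p under 0.05 (limma), beside 1587 and 2659 of all 15502 probe sets. The medians were 0.18 and −0.04, beside 0.02 and 0.06 over all probe sets. At 7 dpa in TCDD fish calr, a chaperone gene, and psat1, of serine synthesis, rose by 1.04 and 1.23 (limma, adjusted p = 0.0270 and 0.0460), which is 2 of 21 beside 2.37% of all probe sets. In control fish they were 0.50 and 0.71 above 0 hpa (limma, adjusted p = 0.313 and 0.265), and 0 of 21 were called beside 2%. The differences between the treatments were 0.55 and 0.51 (limma, adjusted p = 1 for both). A dimmer calr probe set, at 2.50 to 2.64 in TCDD 0 hpa, rose by 0.95 at 7 dpa in TCDD fish (limma, adjusted p = 0.0103). In control fish it was 0.20 above 0 hpa at 7 dpa (limma, adjusted p = 0.727). The difference between the treatments on that probe set was 0.75 (limma, unadjusted p = 0.00445) and was not called. The list median at 7 dpa was 0.45 in control, with 17 of 21 above 0, and 0.59 in TCDD fish, with 19 of 21 above 0, beside −0.03 and −0.02 over all probe sets. The call of the brighter calr probe set was lost without any array of control 0 hpa, TCDD 0 hpa or TCDD 7 dpa. That of the dimmer one was lost without either TCDD 0 hpa array or TCDD 7 dpa replicate 2. That of psat1 was lost without any array of the controls or TCDD 0 hpa or without TCDD 7 dpa replicate 1.

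Summed markers of several cell types differed between 0 and 6 hpa. The summed intensity of 8 erythrocyte markers of 13 listed was 8610 to 9910 in control 0 hpa, 14500 to 20100 in control 6 hpa, 6740 to 7200 in TCDD 0 hpa and 15700 to 20300 in TCDD 6 hpa, and 7530 to 10700 at 7 dpa. Over the 12 arrays it ran with igfbp1a probe set 1 at r = 0.924, a description with no test. The other lists gave a negative r with igfbp1a. It was −0.841 for hepatocytes, −0.681 for epidermis and −0.613 for epicardium and fibroblasts. It was −0.512 for endothelium and endocardium, −0.255 for cardiomyocytes and −0.177 for leukocytes. The 6 hpa ranges of the erythrocyte sum in control and TCDD fish overlapped. At 0 hpa the TCDD sums, 6740 to 7200, lay below the control sums, 8610 to 9910, as the igfbp1a levels did. The part of the erythrocyte sum in the igfbp1a levels was not tested. The liver, the main source of IGFBP1 in mammals, was looked for with 15 measured hepatocyte markers of 20. Their sum was lower at 6 hpa, 188 to 244 in control and 153 to 203 in TCDD fish, than at 0 hpa, 589 to 672 and 375 to 442. That difference lay in rbp4 and tfa, for the carriers of retinol and iron, and the other 13 markers stayed between 2.33 and 3.89 log2 units on all 12 arrays. The median log2 level of the 15 was 2.82 to 2.90 in control 0 hpa and 2.85 to 2.96 in control 6 hpa, and 2.68 to 3.01 and 2.90 to 3.08 in TCDD fish. The defining gene fabp10a lay between 2.35 and 2.99 log2 units, below the median of every array.

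Leukocyte markers (9 of 13 measured) summed to 180 to 204 in control 0 hpa, 341 to 1150 in control 6 hpa, 385 to 509 in TCDD 0 hpa and 172 to 1090 in TCDD 6 hpa. The sum of 172 belongs to the TCDD 6 hpa array that stood apart. Cardiomyocyte markers (9 of 18 measured) summed to 36300 to 38600 in control 0 hpa and 31000 to 31300 in control 6 hpa. In TCDD fish they summed to 33800 to 35700 at 0 hpa and 20500 to 27100 at 6 hpa. The sum of 20500 belongs to the array that stood apart. At 7 dpa the cardiomyocyte sums were 22600 to 24000 in control and 21600 to 27200 in TCDD fish. Markers of epicardium and fibroblasts (8 of 12 measured) summed to 456 to 499 in control 6 hpa and 164 to 312 in TCDD 6 hpa, against 3150 to 4640 at 7 dpa. Markers of endothelium and endocardium (5 of 11 measured) summed to 301 to 377 in control 0 hpa, 246 to 275 in TCDD 0 hpa, 182 to 193 in control 6 hpa and 83.1 to 153 in TCDD 6 hpa. Markers of epidermis (13 of 16 measured) summed to 1110 to 1740 at 0 and 6 hpa in control, 1270 to 1730 in TCDD 0 hpa and 480 to 1020 in TCDD 6 hpa. The part of these lists in the igfbp1a levels was not tested.

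The profile of igfbp1a probe set 1 over the 12 arrays was compared with those of 2546 probe sets. These had 1 symbol that was not a clone name and a standard deviation of at least 0.5. Pearson's r was above 0.9 for 26 of them and below −0.9 for 26. Because the 4 arrays at 6 hpa lie apart from the other 8, such an r mostly records a shared change at that time, and it is given as a description. The 8 most alike were taf11 (r = 0.966), a subunit of the general transcription factor TFIID, the zinc finger gene znfl2a (0.955), tcimb (0.953), mibp (0.952), the glutathione peroxidase gene gpx1a (0.949), the phosphate transporter gene slc20a1a (0.942), hif1al2 (0.942) and vps9d1 (0.938). Taf11 is named from 1 of its 3 probe sets and vps9d1 from 1 of its 4. In the RefSeq table znfl2a is the neighbouring protein-coding gene of igfbp1b, the paralogue that did not rise. The 4 most opposite were os9 (−0.967), a lectin gene of protein quality control in the endoplasmic reticulum, sesn3 (−0.961), of the stress-induced sestrins, fam168a (−0.955) and ftr82 (−0.954). Of these, os9 is named from 1 of its 2 probe sets and fam168a from 1 of its 4.

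The rises of these genes in both treatments can be set beside those of igfbp1a. The rise of slc20a1a at 6 hpa was 4.51 in control and 5.20 in TCDD fish, that of tcimb 3.60 and 4.03, and that of znfl2a 3.30 and 3.49. For these 8 genes the TCDD level at 6 hpa minus the control level at 6 hpa was between −0.39 and 0.72, beside 1.11 for igfbp1a probe set 1 and 0.67 for probe set 2, which lies within that range. At 0 hpa the TCDD level minus the control level was between −1.17 and 0.08 for the 8 genes, beside −1.09 and −1.30 for igfbp1a. Of the 8 genes only vps9d1, at 0.08, did not have the lower mean TCDD level at 0 hpa. The gap there was −1.17 for mibp, −1.07 for slc20a1a, −0.69 for tcimb and −0.52 for hif1al2. It was −0.27 for gpx1a, −0.20 for taf11 and −0.08 for znfl2a. The TCDD rise minus the control rise was between 0.19 and 0.87 for the 8 genes, beside 2.19 and 1.96 for igfbp1a. The 8 were chosen by their likeness on the same arrays, so that no test is given.

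**Figure D5:**
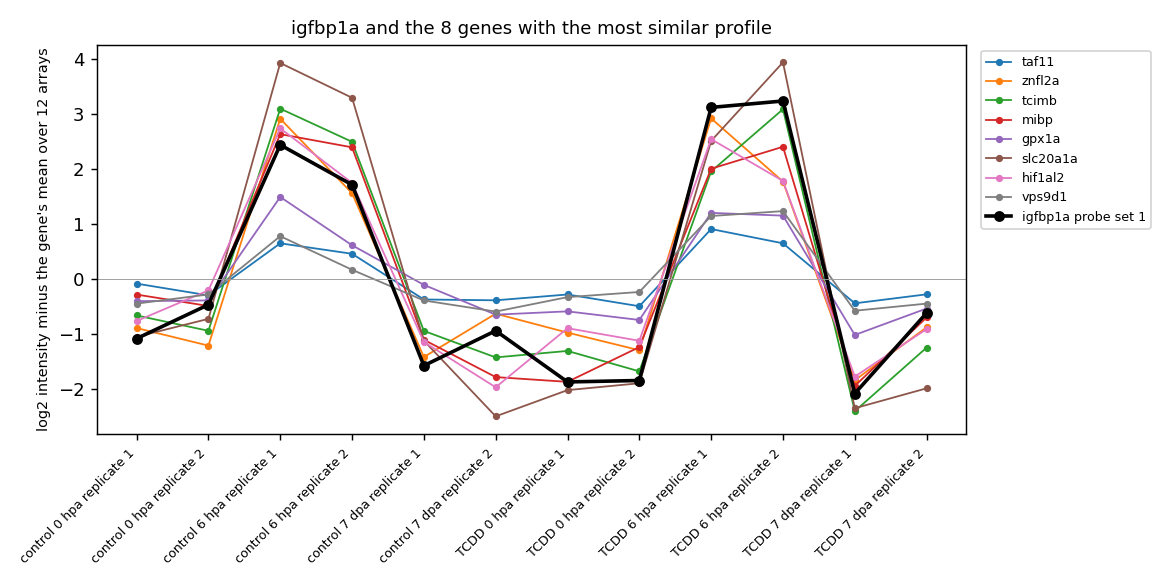
Log2 intensity minus the gene's mean over the 12 arrays (vertical axis) on each array (horizontal axis) for igfbp1a probe set 1 (black) and the 8 genes with the highest Pearson correlation with it. Genes known only by a clone name were not compared. All 9 lines peak on the 4 arrays at 6 hpa, and igfbp1a is 1.11 higher in TCDD than in control fish there on average.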

How the data were processed

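The main table holds 1 intensity per probe set and array on a linear scale, which the authors made with RMA, as the submitters' processing notes state. For RMA neither a version nor the set of arrays normalised together is stated there (not given in the sources used here). A further 5 tables hold class means as intensity and fold as a ratio of class means, deposited by the authors, and were used only where named.

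Log2 was taken, 115 Affymetrix control probe sets of 15617 were left out, and 6 group means were estimated from all 12 arrays for 15502 probe sets with no filter on dim values (limma 3.58.1 in R 4.3.3; 6 residual degrees of freedom and 2.87 added by eBayes). P-values were adjusted by Benjamini-Hochberg over all probe sets in each of 9 comparisons, and called means an adjusted p under 0.05. The procedure was tested on simulated data. The median standard error of a difference was 0.243 log2 units. With 2 arrays a group an exact permutation test of 1 gene cannot go below p = 0.333, so none was used.

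Groups came from the sample titles. Symbols came from GEO's platform annotation, updated through a RefSeq table (assembly GRCz12tu): 10795 tested probe sets had 1 symbol, 135 several and 4572 none, and 10711 were found in RefSeq. Of several probe sets of a gene the brightest was used for lists and all were used for igfbp genes. Named are all igfbp probe sets, IGF ligands and receptors, called members of the lists (up to 4 a comparison), the 8 genes most and the 4 least like igfbp1a, and cyp1a, epas1b, hif1ab and vegfaa. Symbols that are clone names were skipped in the comparison of profiles. The members and lists were chosen with earlier results of these data known. The correlation of same-numbered arrays' deviations from their group means lay between −0.378 and 0.563 over 15 pairs of groups, so the numbers were not taken as pairs. Alternatives were quantile normalisation, centring on the array median, leaving out the 25% dimmest probe sets, trended and robust eBayes, the replicate number as a block, and leaving out each array. Which genes neighbour each other was read from the same RefSeq table. No sequences or coordinates are printed.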

Additional observations from a re-analysis of the deposited data

Results flagged for a closer look

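At 7 dpa probe set 2 of igfbp1a lay on opposite sides of its 0 hpa level in the 2 treatments. Both control arrays were below both control 0 hpa arrays and both TCDD arrays were above both TCDD 0 hpa arrays, and the difference between these changes was 1.54 ± 0.57 log2 units. It is made up of a TCDD minus control gap of −1.30 at 0 hpa, which the choice of the gene had used, and one of 0.24 at 7 dpa, where the pools of both treatments overlapped. The p of the difference (limma, 0.0256 unadjusted and 1 adjusted) is therefore no independent test. On probe set 1 the arrays overlapped in both treatments and the same difference was 1.00 ± 0.65.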

How the results depend on the processing

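With 2 pools a group the number of called probe sets moved strongly. Under quantile normalisation it was 156 in control 6 hpa against 0 hpa (74 as reported), 514 in TCDD 6 hpa against 0 hpa (291), 0 in the TCDD change of the 6 hpa response (1) and 499 in control 7 dpa against 0 hpa (310). Centring on the array median gave 22 and 131 for the first 2 of these. Trended and robust eBayes gave 5 for the TCDD change of the 7 dpa response (1) and 58 for TCDD against control at 7 dpa (18). With the replicate block that last count was 10. Each group holds 1 array of each replicate number, so the block cannot change a log2 fold change. Only standard errors and p-values could move with it. The standard error of the control 6 hpa rise of igfbp1a probe set 1 became 0.436 (0.462 as reported). No tested igfbp probe set changed its side of the threshold in the comparisons examined. For genes other than igfbp1a these were 6 hpa and 7 dpa against 0 hpa within a treatment. Same-numbered arrays were not taken as pairs, since only 8 of 15 pairs of groups correlated above 0.1, although the 3′ minus 5′ actin difference was higher on replicate 1 than on replicate 2 in all 6 groups.

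Leaving out 1 array gave from 2 (without control 0 hpa replicate 1 or control 6 hpa replicate 1) to 309 (without either TCDD 6 hpa array) in control 6 hpa, and from 0 (without either TCDD 0 hpa array) to 2424 (without TCDD 6 hpa replicate 2) in TCDD 6 hpa. It gave 0 to 120 in the TCDD change of the 6 hpa response, 2 to 762 in TCDD against control at 6 hpa (both highest without TCDD 6 hpa replicate 2), 54 to 627 in control 7 dpa, 101 to 683 in TCDD 7 dpa, 0 to 31 in the TCDD change of the 7 dpa response, 1 to 4 at 0 hpa and 3 to 98 in TCDD against control at 7 dpa. A lone array was taken to vary like the other groups.

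With arrays left out in turn, the igfbp1a rise was 2.50 to 3.22 in control and 4.99 to 5.11 in TCDD fish on probe set 1, and 2.20 to 2.99 and 4.07 to 5.05 on probe set 2. Their difference was 1.83 to 2.56 and 1.48 to 2.45. TCDD minus control was 0.74 to 1.47 and 0.18 to 1.15 at 6 hpa, −1.40 to −0.78 and −1.41 to −1.18 at 0 hpa, and −0.83 to 0.64 and −0.25 to 0.73 at 7 dpa, where the sign turned. The 7 dpa difference from 0 hpa was −0.80 to −0.17 and −0.66 to −0.43 in control, −0.22 to 1.25 and 0.51 to 1.48 in TCDD fish, and their difference 0.26 to 1.73 and 1.05 to 2.03. The other igfbp probe sets were examined under the alternatives only in 6 hpa or 7 dpa against 0 hpa within a treatment. None was called there under any setting. The sign turned for igfbp2a at 7 dpa (−1.10 to 0.42 in control, −0.31 to 0.034 in TCDD fish). For igfbp5b it turned in TCDD 6 hpa (−0.85 to 0.15). On igfbp3 probe set 1 it turned in control fish at 6 hpa (−0.72 to 0.012) and 7 dpa (−0.20 to 0.18). In TCDD fish that probe set turned at 7 dpa (−0.10 to 0.010). On igfbp3 probe set 2 the sign turned at 7 dpa in control (−0.033 to 0.18) and TCDD fish (−0.57 to 0.014). The called list genes, to which the same alternatives were applied after seeing the data, all kept their sign. Centring also ended the calls of epas1b, irs2a, grb10a, psat1, the brighter calr probe set and, in control fish, ccn2a and hif1al2. Trended and robust eBayes ended those of grb10a and of irs2a in control fish, the replicate block those of psat1 and, in control fish, irs2a and hif1al2, and quantile normalisation that of hif1al2 in control fish. The cause was not tested. The 2 arrays a group limit the precision of every value, and probe sets near the array medians may miss changes.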
